A study of Mus musculus with 12 samples.

Results

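The loss of HDAC3 was compared between lymphoid-primed multipotent progenitors (LMPPs) and bone marrow plasmacytoid dendritic cells (BM pDCs), gene by gene. The genes described were those listed in the tables of both cell types with at least 1 FPKM (fragments scaled by transcript length and by sequencing depth) in at least 2 libraries of each table. This rule was met by 9552 genes, of 14542 gene IDs found in both tables and 19799 found in either. A gene could meet it through the libraries of 1 genotype alone, which favours the direction in which that genotype is higher. The nearest gene below the limit had 0.99 FPKM as its second highest value in the weaker table, and 120 genes inside the limit and 111 outside it lay within 0.1 FPKM of it. Of the 12 RNA-seq libraries of the series, 8 were used, 2 per group: HDAC3-deficient LMPPs, control LMPPs, HDAC3-deficient pDCs and control pDCs.

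All cells came from C57BL/6 mice. HDAC3-deficient cells were sorted from Hdac3 fl/fl CreERT2 mice and control cells from Hdac3 fl/fl mice without Cre, and both genotypes received tamoxifen intraperitoneally for 5 days and were left for 7 days before sorting. The Cre is expressed from the Rosa26 locus, so Hdac3 was deleted in all tissues of the mouse and not only in the sorted cells, and the floxed segment is exon 3. LMPPs were sorted as Flt3+ CD34+ cells within the lineage-negative, Sca-1+ and c-Kit+ (LSK) compartment, and pDCs as CD11c-intermediate, PDCA-1+, B220+ and Siglec H+ cells. The libraries of a group are duplicates and nothing in the sources states that they came from separate mice, so p-values measure only the spread between these libraries. With 2 libraries against 2, an exact two-sided permutation test of 1 gene cannot go below p = 0.33. Ages and sexes of the mice were not given in the sources used here.

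HDAC3 is a histone deacetylase that works inside the NCoR and SMRT corepressors. It removes acetyl groups from histones at enhancers and promoters, and it is best known for keeping target genes low. LMPPs are early progenitors that keep lymphoid and myeloid potential and divide often, and some of them give rise to pDCs. BM pDCs are differentiated cells that sense nucleic acids through Toll-like receptors and release type I interferon, and their identity depends on the E protein TCF4 (E2-2) and on IRF8.

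Hdac3 itself (chromosome 18, 37936971 to 37955015, GRCm38) checked the labels. It measured 16.9 and 9.87 FPKM in HDAC3-deficient LMPPs, against 56.5 and 66.4 FPKM in control LMPPs. In pDCs it measured 15.6 and 15.9 FPKM in HDAC3-deficient cells, against 38.9 and 37.8 FPKM in controls. The groups did not overlap in either cell type, and reads from exons outside the deleted one can still be counted. The log2 response was −2.20 in LMPPs (limma, adjusted p = 2.2e-05) and −1.26 in pDCs (edgeR, adjusted p = 0.00011). The difference of −0.94 (SE 0.29) passed the test (limma, adjusted p = 0.034), but not with any of the libraries control LMPP 2, HDAC3-deficient pDC 1 or 2, or control pDC 1 or 2 left out (limma, adjusted p = 0.08 to 0.12).

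Each marker set summed higher in the cell type it names, although the LMPP marker Ly6a was higher in pDCs. Kit, Flt3, Cd34 and Ly6a summed to 1077 and 1019 FPKM in HDAC3-deficient LMPPs, against 1427 and 1540 FPKM in control LMPPs. The 6 pDC markers used for the check (Siglech, Bst2, Tcf4, Ptprc, Ly6c2 and Irf7) summed to 3327 and 3014 FPKM in HDAC3-deficient pDCs, against 6048 and 6150 FPKM in control pDCs. In pDCs the 4 LMPP markers summed to 373 to 464 FPKM, with Ly6a at 235 to 283 FPKM there, against 99.3 to 122 FPKM in LMPPs. The 6 pDC markers summed to 229 to 341 FPKM in LMPPs. Markers of other cells also differed between groups. The 6 neutrophil markers, all 6 found in the table, summed to 44.9 and 15.9 FPKM in HDAC3-deficient LMPPs, against 598 and 409 FPKM in control LMPPs, with Ly6g at 0 in both HDAC3-deficient LMPP libraries and under 1 FPKM in the controls. The 5 monocyte and macrophage markers, mostly Lyz2, summed to 256 and 225 FPKM in HDAC3-deficient LMPPs, against 558 and 532 FPKM in control LMPPs. The 4 megakaryocyte markers summed to 8.22 and 7.54 FPKM in HDAC3-deficient LMPPs, against 26.3 and 47.5 FPKM in control LMPPs. The 3 NK markers summed to 367 and 451 FPKM in HDAC3-deficient LMPPs, against 225 and 225 FPKM in control LMPPs, nearly all of it Nkg7. Only Nkg7 was higher. Klrb1c was lower, at 0.63 and 0.42 FPKM in HDAC3-deficient LMPPs, against 3.15 and 2.51 FPKM in controls. Ncr1 was at 0 in both HDAC3-deficient libraries, against 0.15 and 0.08 FPKM. The 6 erythroid markers summed to 103 and 275 FPKM in HDAC3-deficient LMPPs, against 9260 FPKM in control LMPP library 1 and 188 FPKM in control LMPP library 2. Among pDCs, the 5 conventional dendritic cell (cDC) markers summed to 390 and 394 FPKM in HDAC3-deficient cells, against 264 and 258 FPKM in controls. Clec9a made most of this rise, at 208 and 196 FPKM against 46.3 and 51.2 FPKM, and Zbtb46 and Flt3 were also higher. Cd209a was lower, at 35.4 and 18.6 FPKM against 80.3 and 78.8 FPKM, and Xcr1 was under 1 FPKM in all pDC libraries. T and B cell markers were low in all libraries, with sums of 16.3 to 60.1 FPKM that came mostly from Lck, Cd8a and Cd79b, and with Cd3e under 1 FPKM throughout.

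LMPPs were lysed in a buffer for small cell numbers and pDCs in Trizol, and libraries followed either of 2 makers' protocols, so cell type and preparation cannot be told apart. The contrast of each cell type lies within its own table, so a shift shared by all 4 libraries of a cell type cancels in its response. Expected counts of the pDC libraries summed to between 18117748 and 18462220, and the read totals of the LMPP libraries are unknown. The FPKM columns summed to 596771 to 707128 in LMPPs, the highest being HDAC3-deficient library 2, and to 467172 to 491608 in pDCs.

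A response is the mean log2(FPKM + 0.5) of the HDAC3-deficient libraries minus that of the controls, and the difference of responses is the LMPP response minus the pDC response. This scale understates the change of genes near 0.5 FPKM. Calls in LMPPs are limma calls on these values, calls in pDCs are edgeR calls on expected counts, and calls of the difference are limma calls on all 8 libraries, each at an adjusted p under 0.05. Over the 9552 genes, 419 rose (4.39%) and 1576 fell (16.5%) in HDAC3-deficient LMPPs. In HDAC3-deficient pDCs, 2195 rose (23.0%) and 2242 fell (23.5%) of the 9547 that edgeR tested. The median response was −0.21 in LMPPs and −0.14 in pDCs. With the libraries of each table scaled by the median ratio instead, the medians were 0.06 in LMPPs and −0.01 in pDCs.

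Responses of the same gene differed widely between the cell types. Across the 9552 genes, the Pearson correlation of the LMPP and pDC responses was 0.20 and the Spearman correlation 0.20, as a description over genes, which are not independent replicates. Calls went the same way in both cell types for 753 genes, 157 upward and 596 downward. They went opposite ways for 309 genes, of which 262 fell in LMPPs and rose in pDCs and 47 rose in LMPPs and fell in pDCs. Calls in LMPPs alone numbered 215 upward and 718 downward, and calls in pDCs alone 1776 upward and 1599 downward. LMPP calls rest on FPKM without further scaling and pDC calls on counts scaled between libraries, so these splits by direction may depend on the scaling. Over all genes of the LMPP table, 480 were called higher and 2096 lower, but 952 and 918 under median-ratio scaling.

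The difference of responses passed the test for 2566 genes: 1007 (10.5%) responded higher in LMPPs and 1559 (16.3%) lower. Under median-ratio scaling 1424 were higher and 1282 lower, so the balance of directions depends on the scaling while the total was 2706. The total was 1660 without control LMPP library 2, 1388 without HDAC3-deficient pDC library 2, 1335 without control pDC library 1 and 1213 without control pDC library 2.

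**Figure D1:**
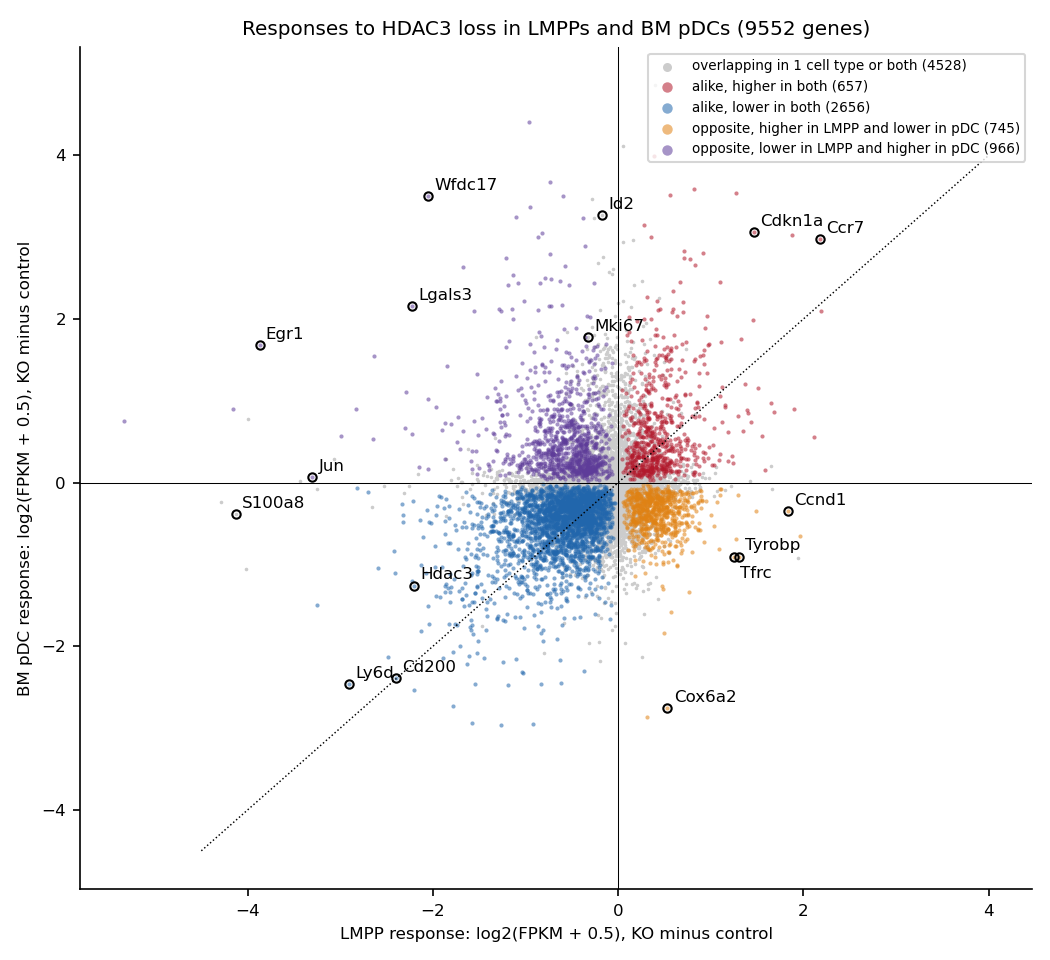
Each point is 1 of 9552 genes. The horizontal axis gives the LMPP response and the vertical axis the BM pDC response, both as log2(FPKM + 0.5) of HDAC3-deficient (KO) minus control libraries, and the dotted line marks equal responses. Coloured genes have both KO libraries beyond both controls in each cell type, 657 and 2656 of them on the same side and 745 and 966 on opposite sides.

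Genes were next sorted by whether both HDAC3-deficient libraries lay beyond both controls. In LMPPs this held above the controls for 1768 genes (18.5%) and below for 4462 (46.7%), and in pDCs above for 2593 (27.1%) and below for 4992 (52.3%). Both cell types separated for 5024 genes, of which 3313 (65.9%) moved alike and 1711 (34.1%) moved in opposite directions. In each cell type far more genes lay below the controls than above, which by itself raises the share that moved alike. That share is therefore not a measure of a common response. The alike genes comprised 657 that were higher in both (6.88% of all genes) and 2656 that were lower in both (27.8%). The opposite genes comprised 745 that were higher in LMPPs and lower in pDCs (7.80%) and 966 that were lower in LMPPs and higher in pDCs (10.1%).

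The share that moved alike was between 60.9% and 66.3% under every scaling, filter and omission of a library that was tried. Its split into higher and lower was not stable. Median-ratio scaling gave 1611 alike higher and 1333 alike lower, and 1105 opposite genes higher in LMPPs and 760 lower. Without HDAC3-deficient LMPP library 1, opposite genes numbered 2592. The genes named below were ranked by the smaller of their 2 absolute responses. Counts of list members below are to be read beside the called shares of all genes. These were 4.39% risen and 16.5% fallen in LMPPs, and 23.0% risen and 23.5% fallen in pDCs. For the difference they were 10.5% higher and 16.3% lower in LMPPs.

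Genes that fell in both cell types were led by Ly6d, which encodes a lymphoid surface antigen that is also carried by pDC precursors. Ly6d measured 0.27 and 0.18 FPKM in HDAC3-deficient LMPPs, against 5.90 and 4.11 FPKM in control LMPPs. In pDCs it measured 308 and 277 FPKM in HDAC3-deficient cells, against 1513 and 1721 FPKM in controls. The genotypes were far apart in both cell types, and the responses were −2.91 in LMPPs (SE 0.32; limma, adjusted p = 4.4e-05) and −2.46 in pDCs (edgeR, adjusted p = 3.3e-05). The cell types differed by −0.44 (SE 0.23), which was not called (limma, adjusted p = 0.18).

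Cd200, a surface glycoprotein that engages an inhibitory receptor on myeloid cells, was at 1.15 and 0.77 FPKM in HDAC3-deficient LMPPs, against 6.84 and 7.43 FPKM in controls. HDAC3-deficient pDCs had 7.48 and 5.03 FPKM, against 33.3 and 35.5 FPKM in control pDCs. All HDAC3-deficient libraries were well below their controls, and the responses of −2.40 and −2.39 differed by −0.01 (SE 0.29). Cnn3, an actin-binding calponin, was at 4.30 and 5.36 FPKM in HDAC3-deficient LMPPs, against 25.0 and 34.3 FPKM in controls. In pDCs Cnn3 was at 4.11 and 3.38 FPKM in HDAC3-deficient cells, against 18.3 and 17.8 FPKM in controls, and its responses were −2.49 and −2.13.

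Ldhb, a subunit of lactate dehydrogenase, was at 40.9 and 49.9 FPKM in HDAC3-deficient LMPPs, against 173 and 142 FPKM in controls, and at 27.4 and 17.96 FPKM in HDAC3-deficient pDCs, against 91.0 and 98.3 FPKM in controls. Its responses were −1.78 and −2.07. The other genes that the rule takes here were Septin4, Cib2, Myof and Maged1, with LMPP responses of −2.21, −1.89, −2.13 and −1.78 and pDC responses of −2.54, −2.15, −1.81 and −2.72. Among these 8 genes only Maged1 passed the test of the difference (0.94; limma, adjusted p = 0.017), having fallen further in pDCs.

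The upstream sequence of Cd200 is given because it ranked first in this direction among genes with a RefSeq match. The 250 bases end just before its RefSeq start site, on the minus strand of GRCm38.p6 at chr16:45409054-45409303, and the capitals mark a GC box (GGGCGG).
Cd200: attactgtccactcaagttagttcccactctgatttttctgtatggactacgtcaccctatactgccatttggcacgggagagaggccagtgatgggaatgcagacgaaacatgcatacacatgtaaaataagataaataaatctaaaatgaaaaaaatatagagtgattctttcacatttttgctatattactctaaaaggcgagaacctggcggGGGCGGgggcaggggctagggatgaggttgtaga

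The list of pDC genes largely moved alike. Of 27 members joined, 13 fell and 2 rose in LMPPs and 17 fell and 2 rose in pDCs, and 14 were lower in both cell types without overlap. The medians were −0.60 in LMPPs and −0.66 in pDCs, beside −0.21 and −0.14 over all genes, and 5 members responded higher and 4 lower in LMPPs by the test of the difference. That balance was not stable, with 6 higher and 3 lower under median-ratio scaling or quantile normalization, and 3 higher and 6 lower without control LMPP library 1. The list holds genes that the study names in these cells, so its direction is not independent evidence.

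Tcf4, the E protein that pDC identity depends on, was at 27.98 and 26.8 FPKM in HDAC3-deficient LMPPs, against 45.8 and 45.1 FPKM in controls. The pDC values were 177 and 143 FPKM in HDAC3-deficient cells, against 241 and 261 FPKM in controls. It fell in both, by −0.72 in LMPPs (limma, adjusted p = 0.0071) and −0.66 in pDCs (edgeR, adjusted p = 0.0079). Siglech, the pDC lectin used in the sort, was at 0.34 and 0.13 FPKM in HDAC3-deficient LMPPs, against 3.94 and 1.6 FPKM in controls. In pDCs it was at 945 and 855 FPKM in HDAC3-deficient cells, against 1903 and 1951 FPKM in controls. Ly6c2 was at 17.1 and 20.9 FPKM in HDAC3-deficient LMPPs, against 50.0 and 62.7 FPKM in controls, with responses of −1.54 in LMPPs and −1.35 in pDCs. It has a near-identical neighbour in Ly6c1, between which reads may be split. Ly6c1 itself had no stable difference: its value was 0.06 with all libraries, −0.82 without control LMPP library 1 (limma, adjusted p = 0.029) and 0.94 without control LMPP library 2 (limma, adjusted p = 0.026).

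Some pDC genes departed from this pattern. Cox6a2, a heart-type subunit of cytochrome c oxidase that pDCs also express, was at 6.62 and 8.43 FPKM in HDAC3-deficient LMPPs, against 6.07 and 4.13 FPKM in controls. HDAC3-deficient pDCs had 140 and 103 FPKM, against 803 and 822 FPKM in control pDCs. Only the pDC change passed its test, and the difference was 3.29 (SE 0.27; limma, adjusted p = 5.7e-05). Lag3, an inhibitory receptor of the immunoglobulin family, went the other way: it was at 3.49 and 3.38 FPKM in HDAC3-deficient LMPPs, against 18.1 and 20.6 FPKM in controls, and its pDC response of −0.26 did not pass (difference −2.07, SE 0.17; limma, adjusted p = 6.2e-05).

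**Figure D2:**
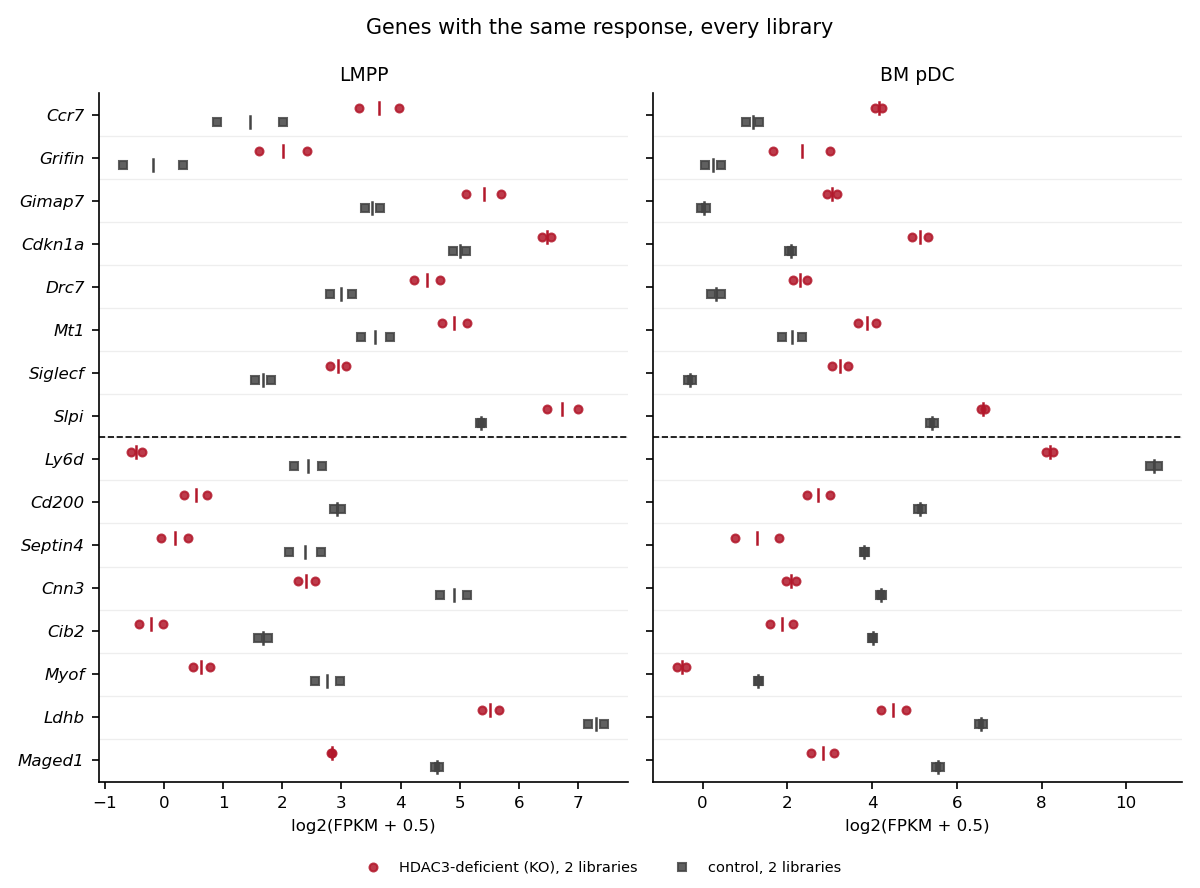
Every library of the 16 genes with the largest same-direction changes is plotted as log2(FPKM + 0.5), LMPPs on the left and BM pDCs on the right, with circles for HDAC3-deficient (KO) and squares for control libraries and a tick at each mean of 2. The 8 genes above the dashed line were higher in KO cells of both types and the 8 below were lower, without overlap between groups in either.

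Genes that rose in both cell types were led by Ccr7, the chemokine receptor that guides dendritic cells and lymphocytes to lymph nodes. It was at 15.2 and 9.28 FPKM in HDAC3-deficient LMPPs, against 1.37 and 3.52 FPKM in controls. The pDC values were 16.3 and 18.3 FPKM in HDAC3-deficient cells, against 2.01 and 1.54 FPKM in controls. Every HDAC3-deficient library was above every control library, with responses of 2.17 in LMPPs (SE 0.34; limma, adjusted p = 0.00068) and 2.98 in pDCs (edgeR, adjusted p = 3.3e-05). The cell types differed by −0.80 (SE 0.46), which was not called (limma, adjusted p = 0.23).

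Cdkn1a, which encodes the cyclin-dependent kinase inhibitor p21, was at 93.1 and 83.04 FPKM in HDAC3-deficient LMPPs, against 29.2 and 34.0 FPKM in controls. In pDCs it was at 30.4 and 39.6 FPKM in HDAC3-deficient cells, against 3.62 and 3.84 FPKM in controls. It rose in both, but by less in LMPPs (1.47) than in pDCs (3.06), a difference of −1.59 (SE 0.21; limma, adjusted p = 0.0008). Gimap7, a GTPase of lymphocytes, was at 51.3 and 34.0 FPKM in HDAC3-deficient LMPPs, against 10.04 and 12.1 FPKM in controls, and at 7.17 and 8.55 FPKM in HDAC3-deficient pDCs, against 0.56 and 0.48 FPKM in controls. Its difference of −1.15 also passed (limma, adjusted p = 0.016), as did that of Siglecf, a sialic acid-binding lectin best known from eosinophils, at −2.27 (limma, adjusted p = 0.00052).

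The remaining genes of this kind were Grifin, Drc7, the metallothionein Mt1 and the protease inhibitor Slpi, with LMPP responses of 2.19, 1.45, 1.33 and 1.37 and pDC responses of 2.09, 1.98, 1.76 and 1.2. Ctsg and Ms4a3, which belong to the granulocyte programme and are named in the study, also rose in both, by 1.65 and 1.90 in LMPPs and by 0.98 and 0.90 in pDCs. Mpo, the myeloperoxidase of primary granules, was at 2516 and 2722 FPKM in HDAC3-deficient LMPPs, against 1144 and 1395 FPKM in controls, and at 106 and 73.9 FPKM in HDAC3-deficient pDCs, against 76.3 and 78.8 FPKM in controls. It rose in LMPPs only by the tests, and its difference of 0.86 (limma, adjusted p = 0.025) did not pass without control LMPP library 1, HDAC3-deficient pDC library 2 or control pDC library 1 or 2 (limma, adjusted p = 0.074 to 0.1).

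Of the 966 genes that were lower in HDAC3-deficient LMPPs and higher in HDAC3-deficient pDCs, changes in both cell types were called for 259. Lgals3, the carbohydrate-binding galectin-3, ranked first. It was at 1.78 and 0.60 FPKM in HDAC3-deficient LMPPs, against 6.24 and 7.63 FPKM in controls, and at 96.8 and 154 FPKM in HDAC3-deficient pDCs, against 30.4 and 24.2 FPKM in controls. No library overlapped with the other genotype, and the responses were −2.22 in LMPPs (SE 0.34; limma, adjusted p = 0.00054) and 2.15 in pDCs (edgeR, adjusted p = 0.00039). The difference was −4.38 (SE 0.44; limma, adjusted p = 0.00018).

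Wfdc17, a small secreted protein with a whey acidic protein domain, was at 126 and 131 FPKM in HDAC3-deficient LMPPs, against 571 and 501 FPKM in controls. HDAC3-deficient pDCs had 35.3 and 54.7 FPKM, against 3.22 and 3.64 FPKM in control pDCs. The loss of HDAC3 thus left it lower in LMPPs and higher in pDCs, with a difference of −5.55 (SE 0.25; limma, adjusted p = 3.6e-06). Its neighbour on chromosome 11, Wfdc18, moved in the same directions, at 3.02 and 4.53 FPKM in HDAC3-deficient LMPPs, against 13.9 and 10.2 FPKM in controls. In pDCs Wfdc18 was at 1.27 and 2.10 FPKM in HDAC3-deficient cells and was listed at 0 in both controls, so no fold is given there.

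Serpinb6b, a serine protease inhibitor, was at 2.30 and 1.63 FPKM in HDAC3-deficient LMPPs, against 6.17 and 8.67 FPKM in controls, and at 23.5 and 22.97 FPKM in HDAC3-deficient pDCs, against 2.83 and 3.88 FPKM in controls. Pak1, a kinase downstream of Rac and Cdc42, was at 13.2 and 17.5 FPKM in HDAC3-deficient LMPPs, against 38.8 and 36.6 FPKM in controls, and at 16.95 and 20.1 FPKM in HDAC3-deficient pDCs, against 4.60 and 3.19 FPKM in controls. The genotypes did not overlap for either gene in either cell type. Their differences were −4.31 (SE 0.30; limma, adjusted p = 2e-05) and −3.41 (SE 0.27; limma, adjusted p = 4.2e-05). Plbd1, Pde1b, Arhgef40 and Rab37 completed the list, with LMPP responses of −2.64, −1.85, −1.52 and −1.27, pDC responses of 1.54, 1.42, 1.33 and 2.09, and differences between −4.18 and −2.85.

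The upstream sequence of Lgals3 is given as that of the first-ranked gene of this direction, from the plus strand of GRCm38.p6 at chr14:47373610-47373859. The capitals mark a CCAAT box, here on the reverse strand as ATTGG, and a GC box, here on the reverse strand as CCGCCC.
Lgals3: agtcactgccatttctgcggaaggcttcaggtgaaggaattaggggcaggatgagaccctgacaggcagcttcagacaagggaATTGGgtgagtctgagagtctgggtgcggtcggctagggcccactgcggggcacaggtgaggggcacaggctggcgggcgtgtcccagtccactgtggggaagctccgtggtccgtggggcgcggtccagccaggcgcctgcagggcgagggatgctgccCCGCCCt

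Immediate early genes, which are transcribed within minutes of a stimulus or stress without new protein synthesis, responded lower in LMPPs than in pDCs. Of 22 members joined, 16 fell in LMPPs, and 14 rose and 4 fell in pDCs. The medians were −1.67 in LMPPs and 0.55 in pDCs, and 19 members responded lower in LMPPs by the test of the difference. Without overlap, 10 were lower in LMPPs and higher in pDCs, 6 were lower in both and 1 was higher in both. Under median-ratio scaling 18 members responded lower, and without control LMPP library 1 there were 18 lower and 1 higher.

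Egr1, a zinc finger transcription factor, was at 19.1 and 10.2 FPKM in HDAC3-deficient LMPPs, against 188 and 239 FPKM in controls. The pDC values were 29.9 and 41.4 FPKM in HDAC3-deficient cells, against 10.4 and 10.9 FPKM in controls. The libraries of the genotypes were far apart in both cell types, with responses of −3.87 (SE 0.23; limma, adjusted p = 2.4e-07) and 1.68 (edgeR, adjusted p = 0.00023). Dusp1, a phosphatase that switches off MAP kinases, was at 237 and 154 FPKM in HDAC3-deficient LMPPs, against 939 and 929 FPKM in controls, and at 153 and 194 FPKM in HDAC3-deficient pDCs, against 81.8 and 78.1 FPKM in controls.

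Jun, a subunit of the AP-1 transcription factor, was at 80.0 and 52.1 FPKM in HDAC3-deficient LMPPs, against 598 and 686 FPKM in controls. In pDCs it was at 389 and 372 FPKM in HDAC3-deficient cells, against 367 and 358 FPKM in controls, where its change was not called (edgeR, adjusted p = 0.1). Klf2, a zinc finger factor tied to quiescence in lymphocytes, was at 2.53 and 1.71 FPKM in HDAC3-deficient LMPPs, against 14.2 and 17.4 FPKM in controls, and at 799 and 794 FPKM in HDAC3-deficient pDCs, against 581 and 522 FPKM in controls. The differences were −3.39 for Dusp1, −3.37 for Jun and −3.18 for Klf2. Klf4 and Gadd45b fell in both cell types instead, by 2.11 and 0.84 on the log2 scale in LMPPs and by 0.67 and 0.92 in pDCs. Rhob was also called lower in both, with responses of −2.32 in LMPPs and −0.48 in pDCs. Gadd45b and Rhob were chosen after their values were seen.

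Heat shock genes included the largest difference among all list members. Hspa1a, a stress-inducible HSP70 chaperone, was at 30.1 and 14.7 FPKM in HDAC3-deficient LMPPs, against 865 and 880 FPKM in controls. HDAC3-deficient pDCs had 6.33 and 8.80 FPKM, against 4.08 and 4.36 FPKM in control pDCs, and the difference was −6.09 (limma, adjusted p = 1.2e-05). Hspa1a and Hspa1b are near-identical copies whose reads may be split, and Hspa1b had a difference of −5.05. Dnajb1, an HSP40 cochaperone, was at 73.7 and 65 FPKM in HDAC3-deficient LMPPs, against 257 and 230 FPKM in controls, and did not change by test in pDCs (response 0.03). The list did not move as one: of 14 heat shock genes, 4 rose and 3 fell in LMPPs, 5 rose and 4 fell in pDCs, and 7 responded higher and 3 lower in LMPPs. Hspa4, a constitutive HSP110 family member, was among the higher ones (difference 1.14; limma, adjusted p = 0.0024).

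The sequence upstream of Klf2 is shown for the immediate early genes, being that of the member with the smallest p of the difference among those with opposite responses and an upstream sequence in the RefSeq table. It lies on the plus strand of GRCm38.p6 at chr8:72318812-72319061, and the capitals mark GC boxes.
Klf2: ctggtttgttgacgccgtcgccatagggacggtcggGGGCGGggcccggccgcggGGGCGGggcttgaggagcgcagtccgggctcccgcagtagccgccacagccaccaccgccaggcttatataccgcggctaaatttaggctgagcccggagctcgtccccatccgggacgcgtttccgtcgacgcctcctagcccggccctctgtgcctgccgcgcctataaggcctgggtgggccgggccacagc

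Genes of stem and multipotent progenitor cells fell in LMPPs. Of 15 members joined, 11 fell in LMPPs, 4 rose and 5 fell in pDCs, and 9 responded lower in LMPPs. Among all genes 16.5% fell in LMPPs and 16.3% responded lower. The pDC counts were near the all-gene shares of 23.0% risen and 23.5% fallen. Kit, the receptor of stem cell factor, was at 87.3 and 67.5 FPKM in HDAC3-deficient LMPPs, against 122 and 138 FPKM in controls. The pDC values were 8.52 and 9.77 FPKM in HDAC3-deficient cells, against 1.77 and 1.54 FPKM in controls, giving a difference of −2.91 (SE 0.22; limma, adjusted p = 3e-05). Gata2, a zinc finger factor of stem cells and progenitors, was at 8.56 and 8.06 FPKM in HDAC3-deficient LMPPs, against 22.0 and 24.4 FPKM in controls, and at 1.09 and 1.35 FPKM in HDAC3-deficient pDCs, against 0.52 and 0.66 FPKM in controls. Cd34 had a difference of −1.69 (limma, adjusted p = 0.00018). In these sorted populations, a change in the number of cells of a type and in RNA per cell cannot be told apart.

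Of 16 megakaryocyte and platelet genes listed, 4 were joined, and all 4 responded lower in LMPPs. The differences were −2.52 for Itga2b (integrin alpha IIb; limma, adjusted p = 0.00029), −2.50 for F2r, −0.78 for Fli1 and −2.82 for Pf4. In control pDCs, Itga2b was at 0.60 and 0.48 FPKM and F2r at 0.16 and 0.25 FPKM. Both were joined only because they reached 1 FPKM in HDAC3-deficient pDCs. Their direction is therefore not independent of the filter, and the count of 4 is no support. The values of Pf4 and Fli1 did not pass the test without control LMPP library 2, HDAC3-deficient pDC library 1 or control pDC library 2 (limma, adjusted p = 0.054 to 0.077), that of Pf4 also without HDAC3-deficient LMPP library 2 (limma, adjusted p = 0.064), and that of Fli1 also without HDAC3-deficient pDC library 2 or control pDC library 1 (limma, adjusted p = 0.064 and 0.073). The megakaryocyte marker sums move with these values, and their part was not tested. Of 12 late granule and neutrophil genes, 8 fell in LMPPs, 5 rose in pDCs, and 9 responded lower in LMPPs.

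S100a8, a calcium-binding alarmin of neutrophils, was at 21.1 and 9.48 FPKM in HDAC3-deficient LMPPs, against 316 and 207 FPKM in controls. In pDCs it was at 9.20 and 16.8 FPKM in HDAC3-deficient cells, against 15.2 and 17.7 FPKM in controls, with overlap. The difference was −3.74 for S100a8 (limma, adjusted p = 0.00071) and −4.06 for its partner S100a9 (limma, adjusted p = 0.0023). The sums of the neutrophil markers given above move with these values, and their part in the result was not tested. Itgam, the integrin CD11b, was at 21.6 and 11.7 FPKM in HDAC3-deficient LMPPs, against 22.1 and 32.6 FPKM in controls. In pDCs, sorted here as CD11b-negative cells, Itgam was at 43.8 and 54.98 FPKM in HDAC3-deficient cells, against 4.08 and 2.80 FPKM in controls (difference −4.41; limma, adjusted p = 9e-05).

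**Figure D3:**
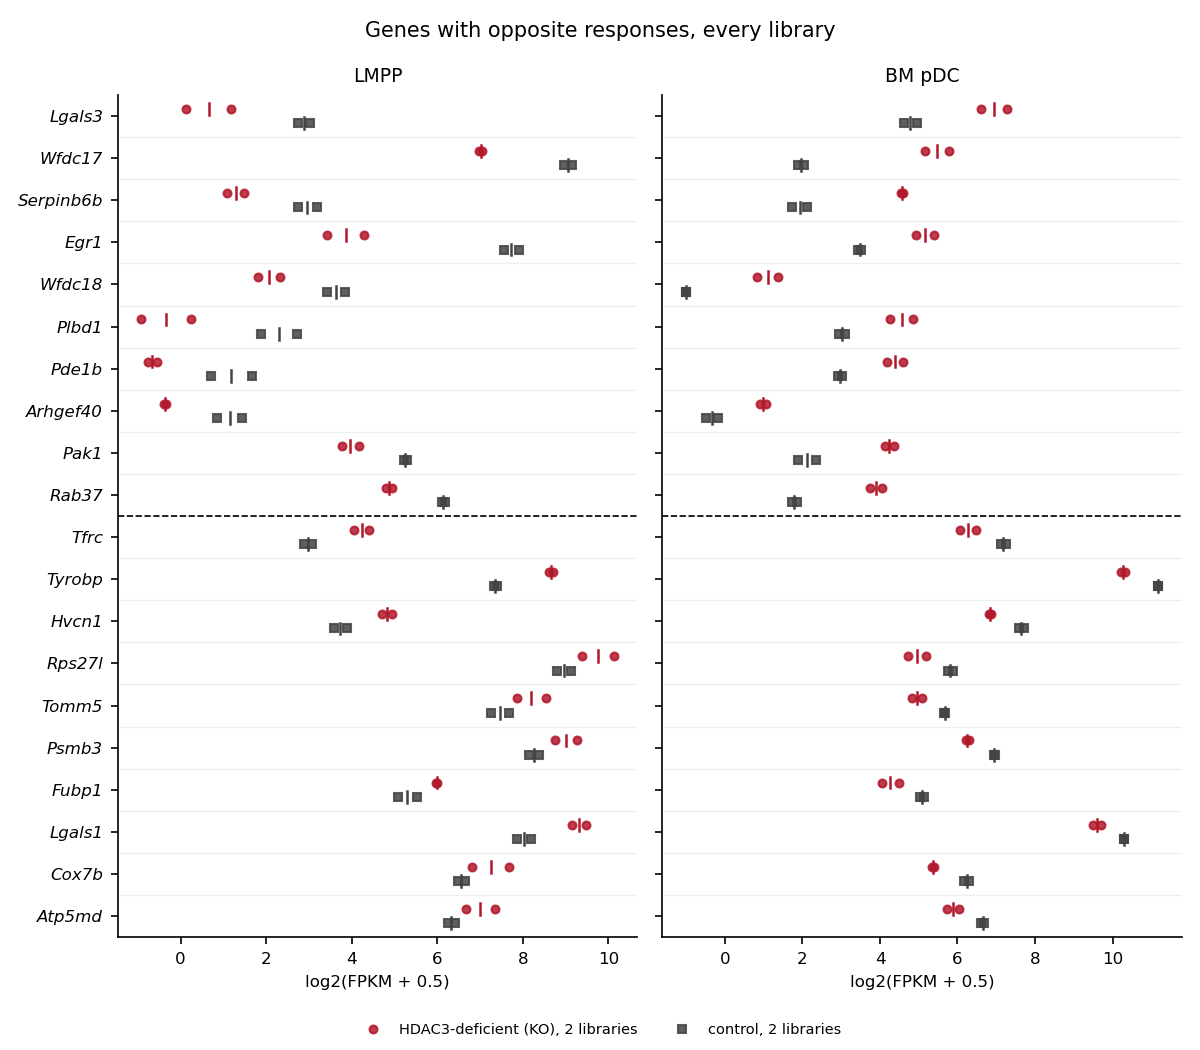
Every library of the 20 genes with the largest opposite changes is plotted as log2(FPKM + 0.5), LMPPs on the left and BM pDCs on the right, with circles for HDAC3-deficient (KO) and squares for control libraries and a tick at each mean of 2. The 10 genes above the dashed line were lower in KO LMPPs and higher in KO pDCs, and the 10 below it the reverse, with Wfdc18 listed at 0 FPKM in both control pDC libraries.

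The other opposite direction was higher in LMPPs and lower in pDCs. Of the 745 separated genes, changes in both cell types were called for 47. Tyrobp, the DAP12 adaptor through which Siglec H signals, was at 390 and 420 FPKM in HDAC3-deficient LMPPs, against 159 and 168 FPKM in controls. HDAC3-deficient pDCs had 1272 and 1196 FPKM, against 2300 and 2323 FPKM in control pDCs. The genotypes were clearly apart in both, with responses of 1.30 in LMPPs (SE 0.17; limma, adjusted p = 0.00016) and −0.91 in pDCs (edgeR, adjusted p = 0.00057), and the difference was 2.21 (SE 0.18; limma, adjusted p = 4.5e-05).

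Tfrc, the transferrin receptor that brings iron into dividing cells, was at 20.8 and 16.1 FPKM in HDAC3-deficient LMPPs, against 6.93 and 7.93 FPKM in controls. The pDC values were 89.3 and 65.9 FPKM in HDAC3-deficient cells, against 139 and 151 FPKM in controls. Its difference was 2.16 (SE 0.24; limma, adjusted p = 0.00026). Lgals1, galectin-1, was at 566 and 708 FPKM in HDAC3-deficient LMPPs, against 232 and 294 FPKM in controls, and at 724 and 831 FPKM in HDAC3-deficient pDCs, against 1250 and 1251 FPKM in controls. It therefore moved against the direction of Lgals3 in both cell types, with a difference of 1.97 (SE 0.23; limma, adjusted p = 0.00034).

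Hvcn1, a voltage-gated proton channel, had a difference of 1.90. The other 6 genes named by the rule encode small or household proteins: Rps27l, Tomm5 of the mitochondrial import pore, the proteasome subunit Psmb3, the DNA-binding protein Fubp1, and the respiratory chain proteins Cox7b and Atp5md. Their LMPP responses were 0.68 to 0.79, their pDC responses −0.86 to −0.69 and their differences 1.43 to 1.65. For all of these except Fubp1, HDAC3-deficient LMPP library 2 was the higher of the pair, as with Cox7b at 113 and 204 FPKM in HDAC3-deficient LMPPs, against 99.5 and 89.4 FPKM in controls.

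The sequence upstream of Tfrc is given because it ranked first in this direction among genes with a RefSeq match. It lies on the plus strand of GRCm38.p6 at chr16:32608646-32608895, and the capitals mark a CCAAT box.
Tfrc: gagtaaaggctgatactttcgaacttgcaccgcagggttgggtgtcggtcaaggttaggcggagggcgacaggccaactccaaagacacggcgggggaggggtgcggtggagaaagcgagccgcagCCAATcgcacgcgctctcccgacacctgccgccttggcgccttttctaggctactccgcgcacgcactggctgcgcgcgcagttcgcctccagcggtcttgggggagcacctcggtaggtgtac

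Oxidative phosphorylation and ribosome biogenesis genes responded higher in LMPPs than in pDCs, the first mainly by calls in pDCs and the second mainly by calls in LMPPs. Of 27 subunits of the respiratory chain and ATP synthase, 1 rose in LMPPs, 14 fell in pDCs, and 15 responded higher in LMPPs. The medians were 0.25 in LMPPs and −0.36 in pDCs. Cox7a2 was at 116 and 181 FPKM in HDAC3-deficient LMPPs, against 111 and 114 FPKM in controls, and at 38.2 and 41.0 FPKM in HDAC3-deficient pDCs, against 70.6 and 68.4 FPKM in controls (difference 1.17; limma, adjusted p = 0.0072). The median transcript of this list measured 1142 bases, and HDAC3-deficient LMPP library 2 was high in short transcripts. The median difference was 0.66 with all libraries, 0.47 without that library and 0.43 after adjusting each library for transcript length, with 13 and 11 members past the test. Under quantile normalization 7 members passed.

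Of 25 ribosome biogenesis genes, 13 rose in LMPPs, 4 rose and 2 fell in pDCs, and 14 responded higher in LMPPs. Nolc1, a nucleolar chaperone, was at 146 and 135 FPKM in HDAC3-deficient LMPPs, against 76.5 and 55.2 FPKM in controls, and at 23.2 and 22.0 FPKM in HDAC3-deficient pDCs, against 25.2 and 24.9 FPKM in controls. Its difference was 1.25 (limma, adjusted p = 0.0024). The median transcript here measured 2804 bases, and the median difference was 0.67 with all libraries, 0.68 without HDAC3-deficient LMPP library 2 and 0.69 after the length adjustment, and 9 members passed under quantile normalization. Cytoplasmic ribosomal protein genes did not share it: of 32, 2 rose in LMPPs and 16 rose and 1 fell in pDCs, 19 were higher in both without overlap, and 1 passed the test of the difference.

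Unfolded protein response and endoplasmic reticulum (ER) genes mostly responded higher in LMPPs. Of 23 joined, 13 responded higher and 2 lower in LMPPs, beside 10.5% and 16.3% of all genes. In LMPPs 1 rose and 2 fell, and in pDCs 3 rose and 10 fell, where 23.5% of all genes fell. The higher ones included the chaperones and translocon parts Manf (difference 0.87; limma, adjusted p = 0.009) and Sec61b (1.22; limma, adjusted p = 0.0088). Ddit3, the stress-induced factor CHOP, was at 9.43 and 9.01 FPKM in HDAC3-deficient LMPPs, against 25.3 and 21.3 FPKM in controls. In pDCs Ddit3 was at 30.9 and 34.3 FPKM in HDAC3-deficient cells, against 23.5 and 22.1 FPKM in controls (difference −1.79; limma, adjusted p = 0.00019).

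**Figure D4:**
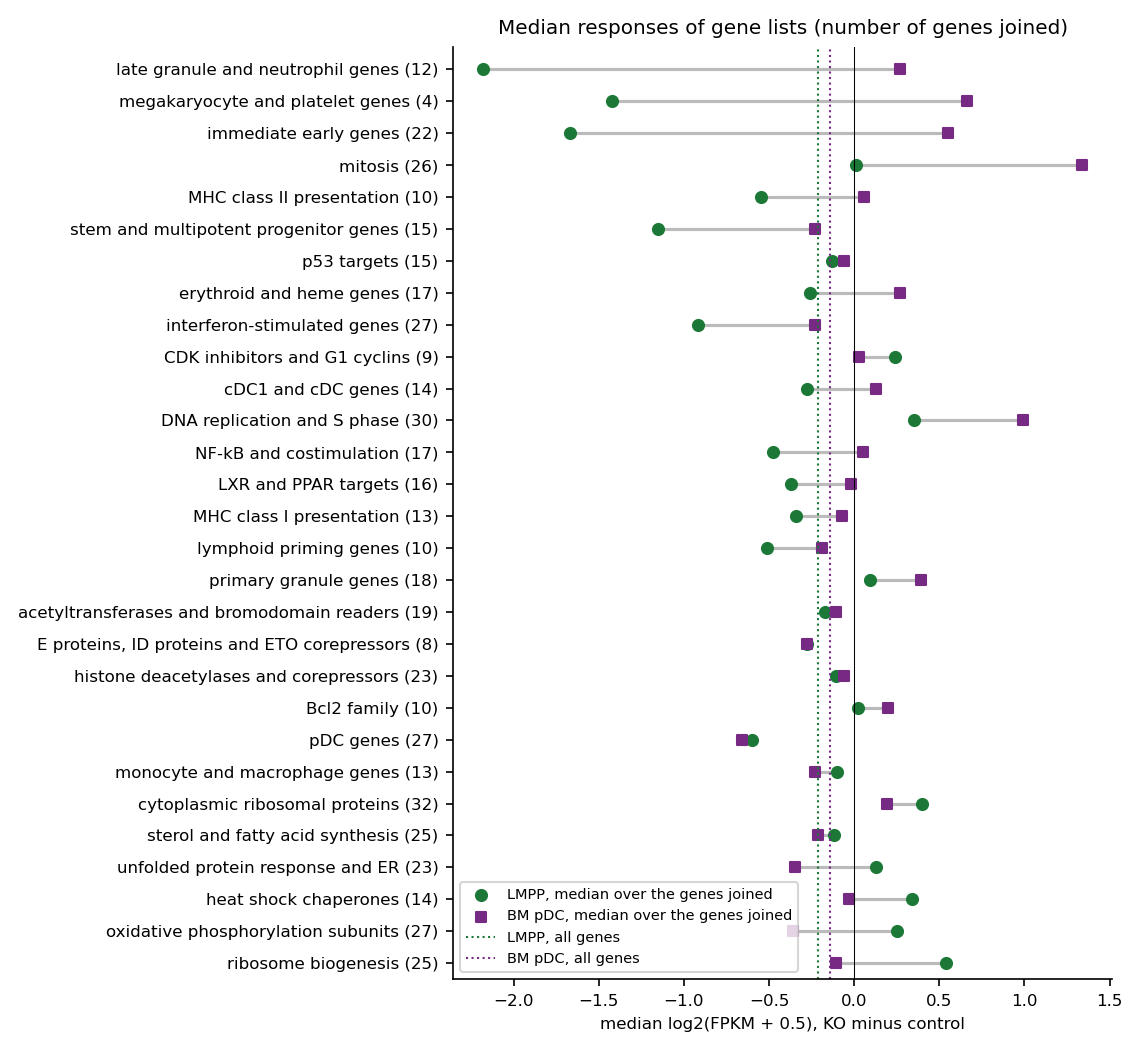
The horizontal axis gives the median response, log2(FPKM + 0.5) of HDAC3-deficient (KO) minus control libraries, of each list with at least 4 genes joined. Circles are LMPPs, squares BM pDCs and dotted lines the medians of all 9552 genes, −0.21 and −0.14. Lists run down by median difference, with late granule genes at −2.18 in LMPPs and 0.27 in pDCs near the top and ribosome biogenesis genes at 0.54 in LMPPs and −0.11 in pDCs at the bottom.

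Cell cycle genes rose in pDCs and much less in LMPPs. All 26 mitosis genes rose in HDAC3-deficient pDCs, 6 rose and 1 fell in LMPPs, and all 26 responded lower in LMPPs by the test of the difference. The medians were 0.01 in LMPPs and 1.34 in pDCs, and 26 members passed without HDAC3-deficient LMPP library 2, 26 after the length adjustment and 25 under median-ratio scaling. Kif23, a kinesin of the cytokinetic midzone, was at 43.4 and 32.9 FPKM in HDAC3-deficient LMPPs, against 36.6 and 40.8 FPKM in controls. In pDCs it was at 89.7 and 90.6 FPKM in HDAC3-deficient cells, against 23.5 and 19.95 FPKM in controls, so that LMPP libraries overlapped while pDC libraries were far apart (difference −2.06; limma, adjusted p = 0.00018).

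Ccnb2, cyclin B2, fell in LMPPs and rose in pDCs. It was at 97.9 and 93.4 FPKM in HDAC3-deficient LMPPs, against 123 and 153 FPKM in controls, and at 58.4 and 64.7 FPKM in HDAC3-deficient pDCs, against 26.1 and 25.6 FPKM in controls (difference −1.75; limma, adjusted p = 0.00018). Of 30 DNA replication and S phase genes, 12 rose in LMPPs, 28 rose in pDCs, and 17 responded lower in LMPPs. The medians were 0.35 in LMPPs and 0.99 in pDCs. Cdt1, a licensing factor, was at 84.2 and 88.1 FPKM in HDAC3-deficient LMPPs, against 51.4 and 54.96 FPKM in controls, and at 38.4 and 41.3 FPKM in HDAC3-deficient pDCs, against 12.4 and 11.5 FPKM in controls.

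G1 cyclins and cyclin-dependent kinase inhibitors, of which 9 were joined, split between the cell types. Ccnd1 (cyclin D1) was at 14.9 and 15.1 FPKM in HDAC3-deficient LMPPs, against 4 and 3.70 FPKM in controls, and at 138 and 106 FPKM in HDAC3-deficient pDCs, against 155 and 154 FPKM in controls. Its rise was called in LMPPs only, and the difference was 2.18 (SE 0.19; limma, adjusted p = 9e-05). Ccnd2 (cyclin D2) rose in both, by 0.63 in LMPPs and 2.04 in pDCs.

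The sequence upstream of Ccnb2 is given for the mitosis genes. It was taken by the smallest p of the difference among members with opposite responses and an upstream sequence. Ccnb2 was the 1 mitosis gene called lower in LMPPs, so it does not stand for the list there. It lies on the minus strand of GRCm38.p6 at chr9:70421555-70421804. The capitals mark 3 CCAAT boxes and a cell cycle genes homology region (CHR, TTTGAA).
Ccnb2: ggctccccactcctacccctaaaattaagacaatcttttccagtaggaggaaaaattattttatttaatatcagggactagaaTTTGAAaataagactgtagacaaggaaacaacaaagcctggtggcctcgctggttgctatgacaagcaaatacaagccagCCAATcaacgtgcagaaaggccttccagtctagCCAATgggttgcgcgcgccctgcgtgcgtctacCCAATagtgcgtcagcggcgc

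RefSeq upstream sequences of 250 bases were matched by gene ID to 7845 of the 9552 genes and searched on both strands for motifs. The CCAAT box was found in 18 of 22 mitosis promoters (81.8%), against 38.2% of all 7845, and the CHR in 7 of 22 (31.8%), against 10.8%. For DNA replication genes, the CCAAT box was found in 15 of 24 (62.5%) and the CHR in 3 of 24 (12.5%). For immediate early genes, the GC box was found in 17 of 19 (89.5%), against 60.6% of all. The 4 classes of alike and opposite genes were close to each other for the CCAAT box and the GC box. Their shares were 37.3% to 38.7% and 56.5% to 61.9%. They differed for the CHR, found in 16.3% of promoters of genes higher in both cell types and 8.77% of those lower in both. For opposite genes the CHR share was 12.4% (higher in LMPPs) and 11.2% (lower in LMPPs). An E2F motif (TTTCGCGC) was found in 1.47% for genes higher in both and 0.274% for genes lower in both. The E-box (CANNTG) bound by TCF4 and other E proteins was found in 58.5% of promoters of genes lower in both cell types, against 55.8% of all. Its share was nearly the same for genes higher in both, at 58.0%, so it did not set falling genes apart from rising ones. For opposite genes the E-box share was 56.6% (lower in LMPPs) and below that of all genes (higher in LMPPs). A match is a description of the letters and not of a bound site.

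Several genes changed strongly in pDCs with little change in LMPPs. Id2, the inhibitor of E proteins, was at 8.89 and 5.44 FPKM in HDAC3-deficient LMPPs, against 8.49 and 7.38 FPKM in controls. HDAC3-deficient pDCs had 59.6 and 103 FPKM, against 7.54 and 7.77 FPKM in control pDCs. LMPP libraries overlapped and pDC libraries did not, and the difference was −3.44 (SE 0.37; limma, adjusted p = 0.0002). Spi1, which encodes the myeloid factor PU.1, was at 223 and 231 FPKM in HDAC3-deficient LMPPs, against 239 and 235 FPKM in controls, and at 118 and 176 FPKM in HDAC3-deficient pDCs, against 58.1 and 46.4 FPKM in controls (difference −1.53; limma, adjusted p = 0.0021).

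Irf8, a factor of pDCs and cDC1 cells, was at 165 and 136 FPKM in HDAC3-deficient LMPPs, against 81.5 and 109 FPKM in controls, where it rose (limma, adjusted p = 0.017). The pDC values were 1639 and 1677 FPKM in HDAC3-deficient cells, against 1952 and 1853 FPKM in controls, a change that was not called (edgeR, adjusted p = 0.63). The difference of 0.87 (limma, adjusted p = 0.017) did not pass without control LMPP library 1 or any 1 of the 4 pDC libraries (limma, adjusted p = 0.051 to 0.067). Among 8 genes of E proteins, ID proteins and ETO corepressors, 3 responded lower and 1 higher in LMPPs. Tcf4, Tcf12 and Cbfa2t2 fell in both cell types, and Id3 had a difference of 2.10 (limma, adjusted p = 0.0014), opposite in sign to that of Id2. Tcf12 and Cbfa2t2 were chosen after their values were seen.

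Zfp366, Batf3, Zbtb46, Clec9a, Cd80 and Cd83, genes of dendritic cells that the study names, were not among the genes joined because they were below 1 FPKM in all LMPP libraries. Batf3, a factor of cDC1 cells, was at 4.84 and 7.17 FPKM in HDAC3-deficient pDCs, against 0.08 and 0.40 FPKM in controls, and Clec9a at 208 and 196 FPKM in HDAC3-deficient pDCs, against 46.3 and 51.2 FPKM in controls. In LMPPs Clec9a was at 0 and 0.02 FPKM in HDAC3-deficient cells, against 0.07 and 0.53 FPKM in controls. Cd209a, in contrast, was at 35.4 and 18.6 FPKM in HDAC3-deficient pDCs, against 80.3 and 78.8 FPKM in controls. Of the 14 cDC genes that were joined, 1 rose and 4 fell in LMPPs, 6 rose and 3 fell in pDCs, and 6 responded lower and 2 higher in LMPPs. Under median-ratio scaling 5 were lower and 4 higher, and under quantile normalization 7 and 4.

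Further genes were called in pDCs only. The chemokine receptor Ccr1 was at 2.70 and 1.12 FPKM in HDAC3-deficient LMPPs, against 1.68 and 0.88 FPKM in controls, and at 16.8 and 28.2 FPKM in HDAC3-deficient pDCs, against 0.23 and 0.31 FPKM in controls (difference −4.46; limma, adjusted p = 0.00026). The sialic acid-binding receptor Cd33 had a difference of −3.61, the short-chain fatty acid receptor Ffar2 one of −4.06 and Tmem51 one of −3.74. On the other side, Matn2, Ptgds, Nnt and Il17rb fell in pDCs with no call in LMPPs, with differences of 3.18, 2.39, 2.02 and 1.98. Nnt, the mitochondrial transhydrogenase, was at 33.3 and 29.6 FPKM in HDAC3-deficient LMPPs, against 27.4 and 32.7 FPKM in controls, and at 9.68 and 8.76 FPKM in HDAC3-deficient pDCs, against 37.7 and 36.6 FPKM in controls. The fatty acid-binding protein Fabp5 had a difference of 2.34.

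LXR and PPAR are nuclear receptors, and LXR is known to recruit NCoR and SMRT. Of 16 LXR and PPAR targets joined, 5 fell in LMPPs, 6 rose and 2 fell in pDCs, and 7 responded lower in LMPPs. The shares over all genes were 16.5% fallen in LMPPs, 23.0% risen and 23.5% fallen in pDCs, and 16.3% lower by the difference. Without overlap in either cell type, 6 were lower in both, 1 was higher in both and 3 were opposite. Apoe, the apolipoprotein E that carries cholesterol, was at 15.2 and 10.2 FPKM in HDAC3-deficient LMPPs, against 68.3 and 52.6 FPKM in controls, and at 47.5 and 39.3 FPKM in HDAC3-deficient pDCs, against 50.3 and 51.2 FPKM in controls. It fell in LMPPs and was not called in pDCs (edgeR, adjusted p = 0.52), with a difference of −1.99 (limma, adjusted p = 0.0008). The cholesterol transporter Abca1 was at 1.27 and 0.79 FPKM in HDAC3-deficient LMPPs, against 1.89 and 2.66 FPKM in controls, and at 6.37 and 5.95 FPKM in HDAC3-deficient pDCs, against 0.36 and 0.31 FPKM in controls. Its LMPP response of −0.86 was not called (limma, adjusted p = 0.064) and the difference was −3.86 (limma, adjusted p = 5.5e-05). Smpdl3a, a phosphodiesterase, fell by 1.02 on the log2 scale in LMPPs and rose by 2.22 in pDCs. Sterol and fatty acid synthesis genes moved little as a list, with 3 of 25 higher and 3 lower by the test of the difference. This was near the shares of all genes, 10.5% and 16.3%.

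Interferon-stimulated genes fell in LMPPs and were mixed in pDCs. Of 27 joined, 17 fell and 1 rose in LMPPs, 12 fell and 8 rose in pDCs, and 12 responded lower in LMPPs. Under median-ratio scaling 10 were lower and 2 higher, and under quantile normalization 8 and 2. Oas3, a sensor of double-stranded RNA, was at 6.49 and 5.73 FPKM in HDAC3-deficient LMPPs, against 9.04 and 16.6 FPKM in controls, and at 7.64 and 7.36 FPKM in HDAC3-deficient pDCs, against 2.47 and 2.68 FPKM in controls (difference −2.33; limma, adjusted p = 0.0012). By contrast 14 members were lower in both cell types without overlap.

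Antigen presentation genes were counted by class. Of 10 MHC class II genes, 5 fell and 1 rose in LMPPs, 2 rose and 1 fell in pDCs, and 6 responded lower and 1 higher in LMPPs. Beside this, 16.5% of all genes fell in LMPPs, 23.0% rose in pDCs and 16.3% responded lower in LMPPs. H2-Ob, a modulator of peptide loading, was at 28.4 and 20.3 FPKM in HDAC3-deficient LMPPs, against 55.9 and 51.0 FPKM in controls, and at 33.8 and 42.7 FPKM in HDAC3-deficient pDCs, against 6.75 and 5.56 FPKM in controls (difference −3.67; limma, adjusted p = 2e-05). Ctss, the lysosomal protease cathepsin S, went the other way, with a difference of 1.37 (limma, adjusted p = 0.0018). Of 13 MHC class I genes, 3 responded higher and 4 lower in LMPPs. Under quantile normalization each class had 1 higher and 6 lower, so a contrast between the classes was not stable. The class I balance also shifted toward lower responses without HDAC3-deficient LMPP library 2. Without control LMPP library 1 the MHC class I counts were 1 and 4.

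Among 17 genes of NF-kB and costimulation, 8 fell and 1 rose in LMPPs, 7 rose and 1 fell in pDCs, and 6 responded lower and 1 higher in LMPPs. All genes together had 16.5% fallen in LMPPs, 23.0% risen in pDCs and 16.3% lower by the difference. The chemokine Ccl3 was at 124 and 90.6 FPKM in HDAC3-deficient LMPPs, against 202 and 293 FPKM in controls, and at 148 and 248 FPKM in HDAC3-deficient pDCs, against 33.6 and 37.5 FPKM in controls (difference −3.61; limma, adjusted p = 0.00013). Ccl4 and Nfkb1 moved in the same opposite directions, with differences of −2.10 and −1.18.

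Counts for the remaining lists are given beside the shares of all genes. By the test of the difference, 10.5% of all genes responded higher and 16.3% lower in LMPPs. In pDCs 23.0% of all genes rose and 23.5% fell. Of 23 histone deacetylase and corepressor genes, 2 fell in LMPPs, 7 rose and 3 fell in pDCs, and 3 responded lower and 1 higher in LMPPs. Of 19 acetyltransferases and bromodomain readers, 2 responded lower in LMPPs. Counts of lower and higher responses in LMPPs were 6 and 1 of 15 p53 targets, 5 and 2 of 18 primary granule genes, 5 and 3 of 13 monocyte and macrophage genes, 3 and 1 of 17 erythroid and heme genes, 2 and 2 of 10 lymphoid priming genes, 4 and 3 of 10 Bcl2 family genes, and 5 and 2 of 9 CDK inhibitors and G1 cyclins. Of 2 T and NK cell genes, 1 responded higher. Car2, carbonic anhydrase 2, stood out in the erythroid list at 206 and 154 FPKM in HDAC3-deficient LMPPs, against 382 and 386 FPKM in controls, and at 104 and 36.1 FPKM in HDAC3-deficient pDCs, against 4.79 and 7.56 FPKM in controls. The erythroid marker Klf1 moved with it in pDCs, at 6.80 and 2.24 FPKM in HDAC3-deficient cells, against 0.79 and 1.09 FPKM in controls, and its part in the result was not tested.

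Transcript length moved with the difference of responses. Median exonic length was known for 9529 genes (99.8%). In the shortest sixth of genes, up to 1349 bases, the median response was 0.01 in LMPPs and −0.26 in pDCs, and in the longest sixth, from 4481 bases, it was −0.30 in LMPPs and −0.09 in pDCs. HDAC3-deficient LMPP library 2 minus library 1 had medians of 0.26 in the shortest and −0.30 in the longest sixth, a wider range than that of the response. Median transcript length was 2203 bases for genes higher in both cell types, 2678 for those lower in both, 1887 for those higher in LMPPs and lower in pDCs and 2808 for those lower in LMPPs and higher in pDCs.

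After each library was adjusted for transcript length, a step chosen after seeing the data that also centres the libraries, the difference passed the test for 2927 genes, 1245 higher and 1682 lower in LMPPs. Alike genes were then 1610 higher and 1552 lower, and opposite genes 882 higher and 940 lower in LMPPs. The part of length in the classes with small changes was not tested further.

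**Figure D5:**
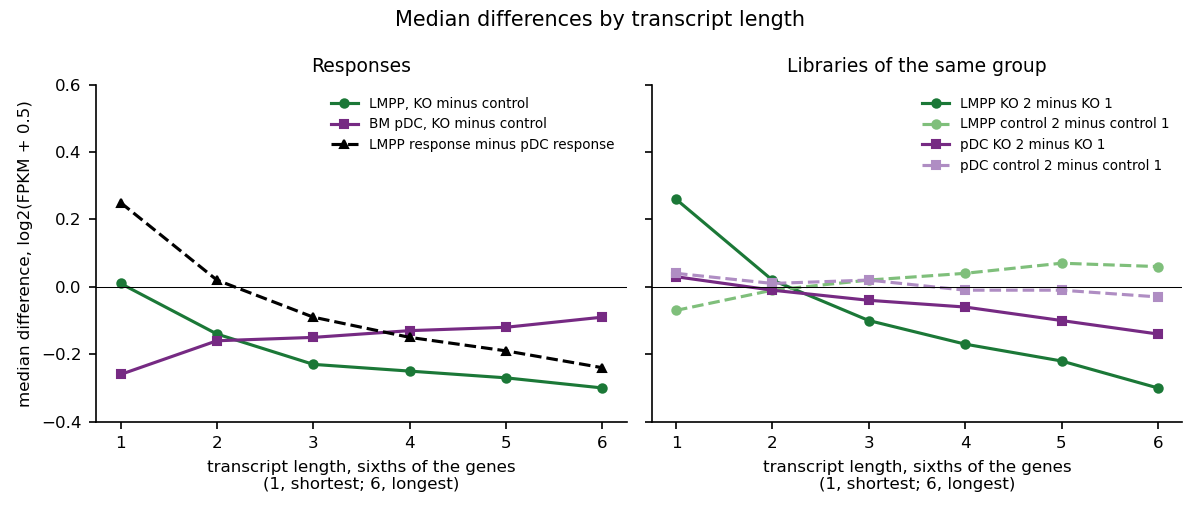
The horizontal axis divides 9529 genes into sixths by transcript length, from 1 (shortest) to 6 (longest), and the vertical axis gives the median difference in log2(FPKM + 0.5). The left panel shows HDAC3-deficient (KO) minus control in LMPPs and BM pDCs and the difference of these responses, 0.25 in the shortest and −0.24 in the longest sixth. The right panel shows library 2 minus library 1 of each group, where KO LMPPs run between 0.26 and −0.30.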

How the data were processed

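RNA-seq of LMPPs and BM pDCs from Hdac3 fl/fl CreERT2 and Hdac3 fl/fl mice was analysed, 8 of 12 libraries. The authors deposited FPKM per gene and library for both cell types, and for pDCs also an expected count per gene, which was rounded here before testing. Per the submitters' processing notes, the tools were Bowtie2 and RSEM and the build mm10, with versions not given in the sources used here. TPM, group averages and the CD115- CDP table were not used. In the LMPP table, 1030 rows without a gene ID were left out.

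Genes were joined by NCBI Gene ID. The difference of responses was tested on log2(FPKM + 0.5) of 8 libraries with limma 3.58.1 (4 group means, trend) in R 4.3.3, LMPPs alone likewise, and pDC counts with edgeR 4.0.16 (filterByExpr, TMM, glmQLFit, glmQLFTest), all two-sided with Benjamini-Hochberg adjustment over all genes tested. The pDC log2 values in the text come from FPKM and their p from counts, and 0 called genes differed in sign. A fold change was given an SE by limma, and precision for LMPPs is limited by an unknown depth. Scripts were tested on simulated data. Alternatives were other pseudocounts, minimums, scalings, limma settings, DESeq2 1.42.0, a replicate block, omission of each library and a length adjustment. Tables were handled with Python 3.11.15, pandas 2.3.3 and matplotlib 3.10.9.

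Named genes were the 8 highest and 8 lowest alike genes and 10 opposite genes per direction called in both cell types, ranked by the smaller of the absolute responses, the 6 highest and 6 lowest differences called in 1 cell type with an absolute log2 under 0.5 in the other, genes the study names, and up to 4 members of each of 30 lists with the smallest p. Members, lists and rule were chosen with earlier results of these data known. Transcript length is the median exonic length of GENCODE basic transcripts (GRCm38). Upstream sequences came from RefSeq (GRCm38.p6). Besides the GC box, CCAAT box, CHR and E-box, a PU.1 core (GAGGAAGT), AP-1 (TGANTCA), CRE (TGACGTCA), heat shock element (GAANNTTC), TATA box (TATAAA) and E2F (TTTCGCGC) motif were searched on both strands, and all but the E-box were capitalised.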

Additional observations from a re-analysis of the deposited data

Results flagged for a closer look

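The difference of responses between LMPPs and BM pDCs was itself tested, and 2566 genes passed (limma). Of the genes named for their changes or by the study, 22 responded lower in LMPPs. Beyond −4 on the log2 scale lay Wfdc17 (−5.55), Egr1 (−5.55), Ccr1 (−4.46), Lgals3 (−4.38), Serpinb6b (−4.31), Plbd1 (−4.18), Ffar2 (−4.06) and S100a9 (−4.06). Between −4 and −3 lay S100a8 (−3.74), Tmem51 (−3.74), Wfdc18 (−3.66), Cd33 (−3.61), Id2 (−3.44), Pak1 (−3.41), Rab37 (−3.36) and Pde1b (−3.27). The value of Wfdc18 depends on the pseudocount because its control pDC libraries are listed at 0. Closer to 0 were Arhgef40 (−2.85), Siglecf (−2.27), Cdkn1a (−1.59), Spi1 (−1.53), Gimap7 (−1.15) and Hdac3 (−0.94).

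Responses that were higher in LMPPs reached 3.29 for Cox6a2 and 3.18 for Matn2. Values between 1.9 and 2.4 were found for Ptgds (2.39), Fabp5 (2.34), Tyrobp (2.21), Ccnd1 (2.18), Tfrc (2.16), Nnt (2.02), Il17rb (1.98), Lgals1 (1.97) and Hvcn1 (1.90). The lower ones were Rps27l (1.65), Cox7b (1.55), Fubp1 (1.51), Atp5md (1.45), Tomm5 (1.44), Psmb3 (1.43), Maged1 (0.94), Irf8 (0.87) and Mpo (0.86).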

How the results depend on the processing

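Of 176 results for single genes, 145 stayed on the same side of the threshold under every alternative run, and among the differences 2552 comparisons with an alternative kept the call, 128 lost it, 23 gained one and 1 reversed. Ly6c1 (0.06) ran between −0.82 and 0.94 with 1 library left out, reversing without control LMPP library 1. Counts stayed within 1.5 times except for LMPP calls under quantile normalization (1636, against 2576) and with libraries left out. Leaving out 1 library each, where the lone library is assumed to vary like the others, gave 1213 to 3614 differences of responses, 3568 to 4109 alike genes, 1903 to 2592 opposite genes, 1167 to 3932 LMPP calls and 2750 to 7005 pDC calls. Calls within a cell type are counted here over all genes tested in its own table, joined or not. Splits depended on scaling: LMPP calls were 480 higher and 2096 lower, but 952 and 918 under median-ratio scaling, 740 and 896 under quantile normalization and 1545 and 1411 after the length adjustment. Differences were 1201 higher and 1247 lower under quantile normalization, and alike genes 1408 and 1469. pDC calls were 2753 higher and 2858 lower by edgeR, 2300 and 2132 by DESeq2 and 1881 and 3696 by limma on FPKM.

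Libraries of equal number were not taken as pairs, since the labels state no pairing and their deviations correlated at −0.13 in LMPPs and −0.19 in pDCs over 2 pairs each. With a replicate block, 1794 differences, 2548 LMPP calls and 5061 pDC calls passed.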
